A study of Mus musculus with 32 samples.

Results

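The genes described here are 44 genes of the cell cycle, 20 that act around DNA replication (S-phase genes) and 24 that act in G2 and mitosis (mitotic genes), out of 12451 genes in the count table. They were chosen by name from textbook roles, with earlier results of these data known. Each was taken by the Ensembl identifier that carries its symbol, and all 44 were in the table. The cells were YUMM3.3, a mouse melanoma line grown in culture from which every group was made. Wells of 6-well plates were left untreated or received Activin-A (40 ng/ml), IFN-γ (20 ng/ml) or both factors together, and RNA was collected after 4 or 12 hrs. This gave 8 groups of 4 wells, 32 wells in all, measured by BRB-seq, a bulk method that barcodes each well and counts reads near the 3' ends of transcripts. The study asked how Activin-A and IFN-γ act on each other's gene programs in melanoma cells without other cells of the tumor. The labels say that wells were set up in quadruplicate and do not say that they came from separate cultures, so p-values measure the spread between wells.

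Cells copy their DNA in S phase and divide in mitosis, and each step has its own wave of transcripts. In G1, cyclin D with CDK4 or CDK6, and later cyclin E with CDK2, phosphorylate the pocket proteins of the retinoblastoma family, which frees E2F factors to switch on the replication genes. The mitotic genes follow later under B-MYB and FOXM1, through a promoter element called the cell cycle genes homology region (CHR). IFN-γ is known to slow the growth of many cell types, and Activin-A, a ligand of the TGF-β family, signals through SMAD2 and SMAD3 and arrests some epithelial cells in G1. In bulk RNA, fewer cells in a phase and less transcript per cell cannot be told apart.

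Total counts ran from 654539 to 1455074 per well, with a median of 988019.5, and the members had between 15 and 834 counts in a well. All 44 members passed the filter on low counts in every comparison, and none had 3 counts or fewer in any well. Of the melanocyte markers, Pmel, Tyrp1, Dct and Mlana were clearly present. Group means of Sox10 were 12.9 to 17.9 CPM (counts scaled to the size of each library) and those of Tyr 10.8 to 14.4 CPM. Mitf, the lineage's master regulator, stood at 5.65 to 10.2 CPM in group means. The summed melanocyte markers ranged from 320.8 to 451.0 CPM over the wells, with overlapping ranges in all groups. The leukocyte markers found in the table (3 of 6) summed to 1.47 to 15.3 CPM. Csf1r was at 3 counts or fewer in all 32 wells, Ptprc in 25 and Cd68 in 7. Cd68 had group means of 4.52 to 7.54 CPM, overlapping those of Mitf. Of 4 keratinocyte markers Krt10 was in the table (1.1 to 15.3 CPM), and of 3 endothelial markers none. IFN-γ target Irf1 had group means of 702.3 to 817.5 CPM with IFN-γ and 38.8 to 45.4 CPM without it. Activin-A target Ccn2 rose from 78.4 to 266.1 CPM at 4 hrs and from 133.5 to 494.7 CPM at 12 hrs in group means, so both agents left their mark on the wells labelled with them. The well Activin-A 4 hrs replicate 1 stood apart: it was the deepest, with 2.14% of counts from mitochondrial genes against 1.08% to 1.54% in the other 31 wells, and its count profile differed more from its group (chi-square per gene of 2.6 to 3.07) than other pairs of wells of a group did (1.17 to 1.59). Members' calls and directions that rest on it are given with and without it, and Ccn2 was at 236.5 to 278.6 CPM in the other wells of its group. The fits of 4 hrs share 1 estimate of the spread, so leaving this well out, a fit chosen after seeing the data, also changed calls between other groups. Of the members only Top2a gained calls, as given with its values, and of the other genes listed here Kif18a (both factors against untreated, 4 hrs), Prc1 and Gtse1 (untreated wells, 12 against 4 hrs) were lower past the test in that fit and did not pass with the well kept.

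Promoter sequences help to show how the gene classes differ. The stretches printed here belong to members whose level passed the test in at least 1 comparison, 1 S-phase gene and 4 mitotic genes. Capitals mark the CHR letters (TTTGAA or TTCGAA), the CCAAT box and the E2F letters (TTTGGCGC, TTTCCCGC, TTTGCCGC or TTTCGCGC), each searched on both strands, so that ATTGG and TTCAAA are matches on the other strand. Sequences are from RefSeq, build GRCm38.p6, 5′ to 3′ on the strand of the gene, at chr1:128359706-128359825 (Mcm6, minus strand), chr11:99024190-99024419 (Top2a, minus), chr10:69352913-69353052 (Cdk1, minus), chr9:70421542-70421654 (Ccnb2, minus) and chr5:30666771-30666910 (Cenpa, plus).
Mcm6: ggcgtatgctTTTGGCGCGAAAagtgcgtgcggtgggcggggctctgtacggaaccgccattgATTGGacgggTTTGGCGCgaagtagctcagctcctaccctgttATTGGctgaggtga
Top2a: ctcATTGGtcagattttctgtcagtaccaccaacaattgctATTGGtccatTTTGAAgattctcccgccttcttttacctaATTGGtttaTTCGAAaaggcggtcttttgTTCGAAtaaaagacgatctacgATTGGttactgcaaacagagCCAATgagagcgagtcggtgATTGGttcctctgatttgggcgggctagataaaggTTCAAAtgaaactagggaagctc
Cdk1: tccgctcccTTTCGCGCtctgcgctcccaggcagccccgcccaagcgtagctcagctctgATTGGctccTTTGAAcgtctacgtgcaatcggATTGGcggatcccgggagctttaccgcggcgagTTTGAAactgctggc
Ccnb2: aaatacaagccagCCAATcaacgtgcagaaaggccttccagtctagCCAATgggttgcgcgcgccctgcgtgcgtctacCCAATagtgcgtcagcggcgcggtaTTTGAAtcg
Cenpa: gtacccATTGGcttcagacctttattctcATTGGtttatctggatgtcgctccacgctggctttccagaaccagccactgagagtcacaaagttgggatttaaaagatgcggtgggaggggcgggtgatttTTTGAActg

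Ccnb2 carried 3 CCAAT boxes ahead of a CHR just inside the annotated start, and Cenpa 2. Mcm6 carried 3 matches to the E2F letters, 2 of which overlap, and no CHR. Over windows of 300 bases, from 250 before to 50 after the annotated start, 16 of the 20 mitotic members with a RefSeq promoter held the CHR letters (80.0%), compared to 3 of 17 S-phase members (17.6%) and 21.7% of 27025 genes. The E2F letters were in 7 of 17 S-phase promoters (41.2%), in 1 of 20 mitotic promoters (5.0%, Cdk1) and in 2.6% of all genes. Mcm6 was among these 7, while Rrm1, Rrm2 and Ccne1, the other S-phase members that passed the test in a comparison, held no E2F letters. CCAAT was in 18 of 20 mitotic (90.0%), 10 of 17 S-phase (58.8%) and 41.1% of all promoters. These matches describe the letters in the windows and are no evidence of binding in these cells.

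Across the 9 comparisons of 2 groups, cell-cycle transcripts moved little. The largest change of any member was 1.57-fold, and the 95% intervals of none of the 396 member tests reached beyond 2-fold in either direction. DEGs (adjusted p-val <0.05, the quasi-likelihood test of edgeR, adjusted by Benjamini-Hochberg over all genes tested) among the members came to 13 calls over all 11 comparisons, and concerned 9 genes: Mcm6, Rrm1, Rrm2 and Ccne1 of the S-phase genes and Top2a, Ccnb2, Cdk1, Cenpa and Kif23 of the mitotic genes. The other 35 members passed the test in no comparison.

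**Figure D1:**
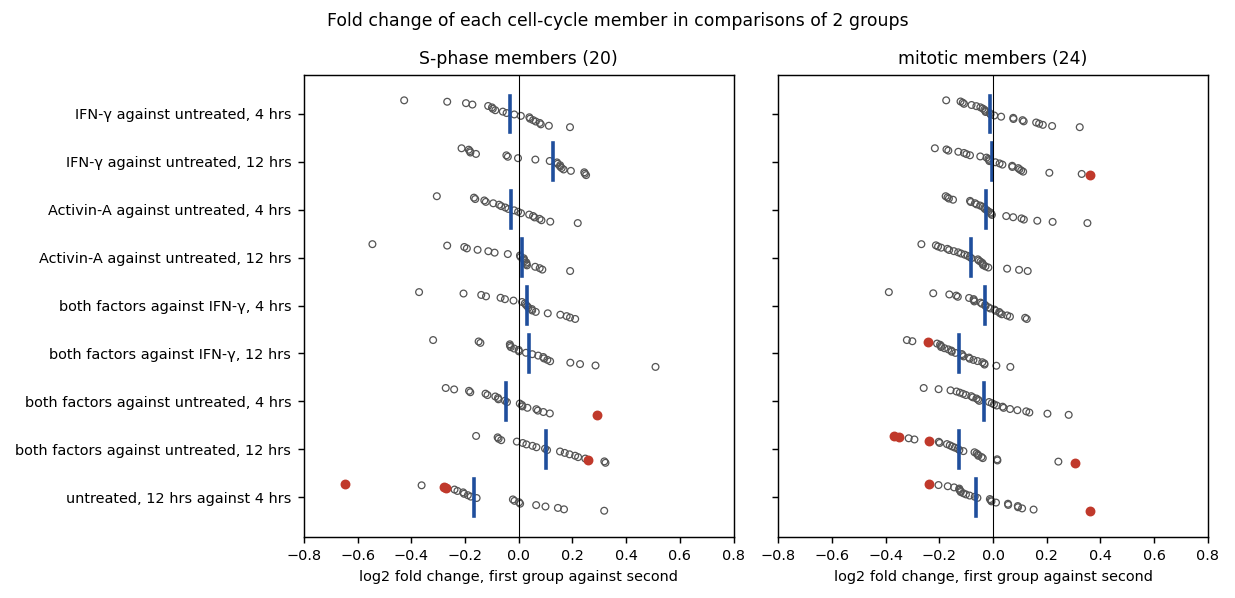
Log2 fold change (x axis) of each S-phase member (left, 20 genes) and mitotic member (right, 24 genes) in 9 comparisons of 2 groups (y axis). Each circle is a gene, filled red where the adjusted p was below 0.05, and the blue bar is the median; in the comparisons that add Activin-A at 12 hrs the mitotic medians lie at -0.08 and -0.13.

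IFN-γ left the cell-cycle genes nearly level at 4 hrs and raised Top2a at 12 hrs. At 4 hrs 0 of 44 members passed edgeR's test, against 5.06% of the 9137 genes tested, with 3 members at an unadjusted p under 0.05 and 0 calls by DESeq2. The median log2 fold change was -0.03 over the S-phase members and -0.01 over the mitotic members, compared to -0.01 over all genes. For 42 of 44 members the 95% interval stayed within 1.5-fold. The members with the lowest p were Top2a (log2 fold change 0.22, adjusted p = 0.0713), Mcm4 (-0.20, adjusted p = 0.273) and Cdc6 (-0.43, adjusted p = 0.292), and next within their classes were Rfc4 (-0.27), Aurkb (0.17) and Cenpe (0.32), of which none passed. With only the 8 wells of the comparison in the fit, Top2a passed at 4 hrs too (adjusted p = 0.0191), and likewise in the fit without the well that stood apart (adjusted p = 0.0289).

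At 12 hrs of IFN-γ 1 of 44 members was higher and none lower, while 9.25% of 8971 genes passed. Top2a encodes topoisomerase IIα, the enzyme that untangles sister chromatids. Its levels in the 4 untreated wells were 339.4, 342.4, 378.7 and 361.3 CPM, and in the 4 IFN-γ wells 429.4, 450.6, 453.7 and 483.8 CPM. Every IFN-γ well lay above every untreated well. The fold change was 1.28 (log2 0.36, SE 0.07, adjusted p = 1.11e-05 by edgeR's quasi-likelihood test), and the call held when any single well was left out (highest adjusted p = 6.33e-04). With both factors at 12 hrs Top2a stood at 396.4, 452.0, 469.1 and 432.3 CPM, again above all untreated wells (log2 fold change 0.30, SE 0.07, adjusted p = 4.28e-04). With Activin-A alone it was between 327.9 and 378.2 CPM, overlapping the untreated wells (log2 fold change -0.03). At 4 hrs the wells with IFN-γ or both factors held 449.2 to 507.3 CPM and the untreated wells 379.6 to 430.7 CPM, with no overlap, while the adjusted p was 0.0713 and 0.0821 (0.0289 and 0.0329 without the well that stood apart). At that time 2 of 44 members with IFN-γ and 5 with both factors did not overlap the untreated wells, where 9.39% and 12% of all genes did not. The IFN-γ effect on Top2a did not differ detectably between the times (difference of log2 fold changes 0.15, 95% interval -0.04 to 0.35).

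The MCM proteins form the ring that unwinds DNA at replication forks. All 6 Mcm genes had a fold change above 0 with IFN-γ at 12 hrs, from 0.14 to 0.25 on the log2 scale, and none passed the test. Mcm5 (0.25, adjusted p = 0.0922) and Mcm7 (0.19, adjusted p = 0.0942) came nearest. Mcm5 passed without untreated replicate 4 (adjusted p = 0.0337) or IFN-γ replicate 2 (0.0313), and Mcm7 without untreated replicate 2 (0.0344). Mcm2 was 173.9 to 199.9 CPM untreated and 200.1 to 214.5 CPM with IFN-γ at 12 hrs, close together but without overlap. The median over all 20 S-phase members was 0.13, and -0.01 over all genes. Rrm2 had a log2 fold change of 0.17 (adjusted p = 0.207), and both cyclin E genes pointed down (-0.19 and -0.21, neither past the test). Among mitotic genes, 12 of 24 had a positive and 12 a negative fold change, with a median of 0.00. Plk1, the kinase that drives mitotic entry and spindle assembly, had -0.22 and Cenpe, a kinetochore motor, 0.33 (adjusted p = 0.222 for both); Plk1 passed without untreated replicate 2 (adjusted p = 0.048).

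The test of whether the IFN-γ effect differed between 12 and 4 hrs found 0 members, against 0.579% of 9332 genes, with 4 members at an unadjusted p under 0.05 and 0 calls by DESeq2. These 4 were Mcm4 (difference of log2 fold changes 0.36), Mcm5 (0.38) and the clamp loader subunit Rfc4 (0.52), with a larger fold change at 12 hrs, and Plk1 (-0.36), with adjusted p between 0.262 and 0.472. Ccnb1 (-0.24) and Bub1 (0.40), next among the mitotic members, had intervals that included 0.

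Activin-A alone called no member at either time. At 4 hrs 0 of 44 members passed edgeR's test, beside 1.64% of all genes; 6 members had an unadjusted p under 0.05 and DESeq2 called 0. Mcm6 had the lowest p: its untreated wells at 320.9, 295.4, 328.2 and 325.7 CPM all lay below its Activin-A wells at 360.9, 397.9, 353.4 and 369.1 CPM (log2 fold change 0.22, adjusted p = 0.113; 0.23 without the well that stood apart, adjusted p = 0.122). The groups of 3 of 44 members did not overlap here, where 6.19% of all genes did not. Mcm5 (-0.16) and Ccne1 (-0.31), with Cdk1 (-0.16), Cenpf (0.35) and Ube2c (-0.15), did not pass (adjusted p of 0.261 or more). Without that well the count stayed at 0 and these members kept their direction. At 12 hrs 0 of 44 members passed edgeR's test, beside 2.41% of all genes, with 3 at an unadjusted p under 0.05 and 0 calls by DESeq2. These 3 were Ccne2, which encodes cyclin E2 (log2 fold change -0.55, 95% interval -0.91 to -0.18, adjusted p = 0.0987), Cenpa (-0.19, adjusted p = 0.0752) and Mcm3 (-0.27, adjusted p = 0.157). Ccne2 stood at 41.0, 48.4, 36.3 and 49.1 CPM untreated and at 20.1, 37.7, 35.2 and 28.5 CPM with Activin-A, where a single Activin-A well, replicate 2, lay inside the untreated range. Ccne2 passed when that well was left out (adjusted p = 0.0477), and Cenpa passed without replicate 2 of the untreated wells (adjusted p = 0.0438). Tyms (-0.19), Kif11 (-0.20) and Nusap1 (-0.21) were next within their classes, all with an adjusted p of 0.484 or more.

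Although few single genes passed, mitotic genes pointed the same way at 12 hrs of Activin-A. Against untreated wells 21 of 24 mitotic members had a fold change below 0, with a median of -0.08 on the log2 scale, and the exceptions were Cenpe, Cenpf and Mki67. With both factors against IFN-γ alone, 22 of 24 were below 0, with a median of -0.13, and the exceptions were Ccnb1 and Plk1. The medians over all genes were 0.00 and -0.01. These comparisons share no wells, and 19 of 24 mitotic members were below 0 in both and none above 0 in both. Of the S-phase members, 8 of 20 were below 0 in each and 2 in both. Of 46 other replication genes tested (a list described below), 29 were below 0 with Activin-A (median -0.05). With both factors against IFN-γ, 25 of these 46 were below 0 (median -0.02). At 4 hrs 17 and 15 of 24 mitotic members were below 0 and 11 in both; without the Activin-A well that stood apart, 13 of 24 were below 0 against untreated. By role, all 6 spindle genes (Kif11, Kif20a, Kif23, Tpx2, Nusap1 and Hmmr) were below 0 in both comparisons at 12 hrs, from -0.21 to -0.06 without IFN-γ and from -0.32 to -0.04 with it. All 7 kinases, checkpoint genes and Birc5 were below 0 without IFN-γ (-0.27 to -0.02) and 6 of 7 with it. Members of a wave share their timing, so these counts describe a direction and are no test.

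A mitotic score, the mean log2 CPM over the 24 mitotic members in a well, shows the same at the level of wells. At 12 hrs it was 7.25 ± 0.02 (SD, n = 4) in untreated wells and 7.26 ± 0.02 with IFN-γ, compared to 7.17 ± 0.04 with Activin-A and 7.14 ± 0.03 when the factors were combined. All wells with Activin-A, alone or with IFN-γ, ranged from 7.11 to 7.19, below all wells without it, which ranged from 7.22 to 7.28. The differences were small, -0.08 for Activin-A alone and -0.13 for both factors against IFN-γ. At 4 hrs all groups overlapped, with means of 7.25 to 7.29. The S-phase score at 12 hrs had means of 6.68 ± 0.01 with Activin-A, 6.73 ± 0.04 untreated, 6.78 ± 0.03 with IFN-γ and 6.82 ± 0.05 with both, and only the wells with both factors cleared the untreated wells. The well Activin-A 4 hrs replicate 1 entered the 4 hrs scores of Activin-A: the mitotic difference from untreated was -0.0109 with it and -0.00122 without it, and the S-phase difference -0.0238 and -0.0104. A score made from the median over members in place of the mean gave -0.0167 for the mitotic difference with Activin-A at 12 hrs and 8.73e-04 for the S-phase difference with both factors, so these values depend on how members are averaged. The same score gave S-phase differences of -0.145 for Activin-A and -0.0022 for IFN-γ at 12 hrs, against -0.05 and 0.05 with the mean.

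**Figure D2:**
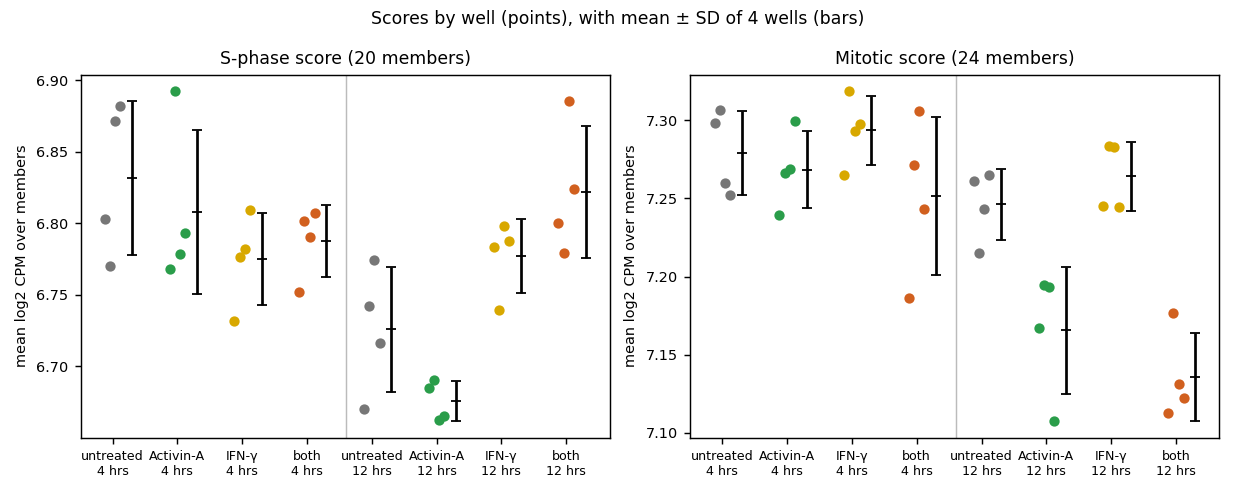
S-phase score (left) and mitotic score (right), the mean log2 CPM over members, for each of the 32 wells (points) by treatment and time, with mean ± SD of 4 wells (black bars); the y axes do not start at 0. At 12 hrs the mitotic score of every well with Activin-A (7.11 to 7.19) lies below that of every well without it (7.22 to 7.28).

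Adding Activin-A to IFN-γ called 1 member at 12 hrs and none at 4 hrs. At 4 hrs edgeR's test called 0 of 44 members, against 0.81% of all genes, with 5 at an unadjusted p under 0.05 and 0 calls by DESeq2. The lowest p in each class belonged to Ccne2 (log2 fold change -0.37), Mcm6 (0.18), Mcm4 (0.21), Aurkb (-0.22), Ttk (-0.39) and Kif20a (-0.16), with adjusted p of 0.322 or more. At 12 hrs 0 members were higher and 1 was lower, against 1.03% of all genes. Cenpa encodes CENP-A, the histone H3 variant that marks centromeres and is made in G2. It stood at 545.8, 522.7, 479.6 and 559.5 CPM with IFN-γ and at 423.5, 482.4, 428.2 and 449.8 CPM with both factors. A single IFN-γ well, replicate 3, fell within the range of the wells with both factors. The log2 fold change was -0.24 (SE 0.06, adjusted p = 0.0332 by edgeR). The call is fragile: DESeq2 gave an adjusted p of 0.0594, a fit of all 32 wells 0.13, a fit of the 8 wells compared 0.0515, and it was lost in 6 of 8 fits that left out 1 well, all but those without IFN-γ replicate 3 or both-factor replicate 2. Kif23, which encodes a kinesin of the central spindle, was the only member whose groups did not overlap, where 5.66% of all genes did not (106.7 to 144.3 CPM with IFN-γ, 91.5 to 106.0 CPM with both; log2 fold change -0.32, adjusted p = 0.225). Ube2c (-0.15), Ccne1 (0.51), Rfc4 (-0.32) and Mcm7 (-0.14) were next within their classes, none past the test.

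Among the treatments, both factors against untreated wells called the most members. At 4 hrs 1 of 44 members was called, against 7.29% of all genes. It was Mcm6, with 389.0, 375.9, 397.1 and 383.4 CPM with both factors against 320.9, 295.4, 328.2 and 325.7 CPM untreated. All 4 treated wells lay above all untreated wells (log2 fold change 0.29, SE 0.07, adjusted p = 0.00323 by edgeR's quasi-likelihood test), and the call held in every alternative tried (adjusted p up to 0.0223 with a well left out). With IFN-γ alone Mcm6 was at 314.7 to 351.4 CPM at 4 hrs (log2 fold change 0.11, adjusted p = 0.56). Mcm6 was thus at its lowest in the untreated wells of 4 hrs. At 12 hrs its 4 group means were 351.2, 355.9, 388.6 and 395.5 CPM, in the order untreated, Activin-A, IFN-γ and both, and no difference tested between them passed. The other members with the lowest p of their class at 4 hrs were Top2a (0.20), Bub1b (-0.26), Cdk1 (-0.14), Rrm1 (-0.12) and Ccne1 (-0.24), none past the test.

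At 12 hrs both factors called 5 of 44 members, 2 higher and 3 lower, beside 9.84% of all genes, so the members' share (11.4%) is near that background. The groups of 6 of 44 members did not overlap, where 12.5% of all genes did not. The 2 higher genes were Top2a, given above, and Rrm2, the regulated subunit of ribonucleotide reductase, which makes deoxyribonucleotides. Rrm2 stood at 245.1, 259.9, 256.5 and 226.8 CPM untreated and at 285.8, 264.9, 348.5 and 285.5 CPM with both factors. Every treated well lay above every untreated well, with replicate 3 far above the rest (log2 fold change 0.26, SE 0.08, adjusted p = 0.0163). Without that replicate the log2 fold change was 0.17 (adjusted p = 0.251), without untreated replicate 4 the adjusted p was 0.0721, and DESeq2 gave 0.0775. Rrm1, the partner subunit, had -0.08 (adjusted p = 0.627). Mcm2 (0.21) and Mcm6 (0.17) did not pass (adjusted p = 0.107 and 0.108).

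The 3 lower genes were all mitotic: Cenpa, Kif23 and Ccnb2. Cenpa was 580.6, 528.8, 550.4 and 615.0 CPM untreated and, with both factors, at most 482.4 CPM in every well. The groups were well apart (log2 fold change -0.35, SE 0.06, adjusted p = 9.06e-06), and the call held in every alternative tried (adjusted p up to 2.95e-04). In the order untreated, IFN-γ, Activin-A and both, the Cenpa means at 12 hrs were 568.7 ± 37.5, 526.9 ± 35.0, 496.4 ± 22.7 and 446.0 ± 26.8 CPM (SD, n = 4). Only both factors against untreated and both against IFN-γ passed among the comparisons tested. Kif23 was 153.1, 127.3, 116.7 and 108.7 CPM untreated and 91.5, 100.3, 100.7 and 106.0 CPM with both factors, close but without overlap (log2 fold change -0.37, SE 0.11, adjusted p = 0.0207). Without untreated replicate 1 the log2 fold change of Kif23 was -0.245 and the call was lost (adjusted p = 0.292). Kif23 also lost the call without both-factor replicate 1 (0.0819) and with DESeq2 (0.145). Ccnb2, cyclin B2, a partner of CDK1, was 257.4, 223.2, 230.1 and 242.0 CPM untreated and 180.7, 200.6, 232.3 and 195.8 CPM with both, where replicate 3 overlapped the untreated wells (log2 fold change -0.24, adjusted p = 0.0442). Its call was lost in 6 of 8 fits with 1 well left out (adjusted p up to 0.243), with DESeq2 (0.169), with no filter (0.0581) and in a fit of all 32 wells (0.0608).

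**Figure D3:**
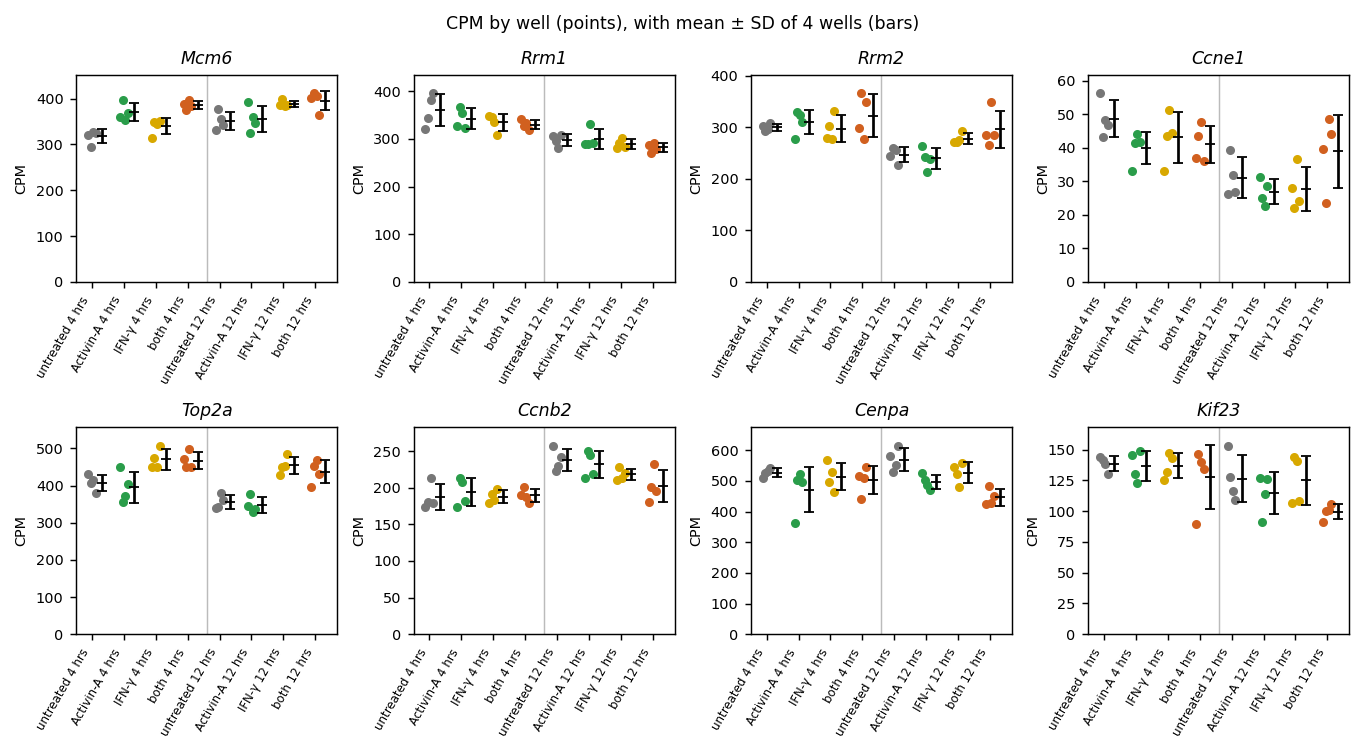
CPM (y axis, from 0) of 8 of the 9 members called in at least 1 comparison, for each of the 32 wells (points) by treatment and time, with mean ± SD of 4 wells (black bars). At 12 hrs Top2a lies higher in the wells with IFN-γ or both factors (396.4 to 483.8 CPM) than in the other wells (327.9 to 378.7 CPM), and Cenpa is lowest with both factors.

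The interaction of Activin-A and IFN-γ at 12 hrs, which asks whether the joint effect differs from the sum of the single effects on the log scale, called 0 of 44 members by edgeR and 0 by DESeq2, against 0.0111% of all genes. The 2 members with an unadjusted p under 0.05 were the cyclin E genes, which start S phase with CDK2. Ccne1 was 26.3, 39.4, 31.9 and 26.9 CPM untreated, 22.8 to 31.3 CPM with Activin-A, 21.9 to 36.7 CPM with IFN-γ and 39.5, 23.7, 48.7 and 44.3 CPM with both factors. The single factors thus gave means below untreated, and 3 of 4 wells with both factors lay above every well with a single factor. The interaction was 0.71 (95% interval 0.15 to 1.28) for Ccne1 and 0.77 (0.27 to 1.28) for Ccne2 on the log2 scale, with adjusted p of 0.574 and 0.378. Rfc4 (-0.38), Mki67 (-0.17), Cenpe (-0.22) and Ube2c (-0.12) had intervals that included 0. The 95% interval of the interaction stayed within 1.5-fold for 35 of 44 members.

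Time in culture moved as many members as any treatment did. In untreated wells 5 of 44 members differed between 12 and 4 hrs, 1 higher and 4 lower, against 4.9% of 9332 genes, and differences in handling between the times cannot be told apart from time itself. Ccnb2 was 174.1, 179.9, 213.0 and 179.8 CPM at 4 hrs and rose to 223.2 to 257.4 CPM at 12 hrs, with no overlap (log2 fold change 0.36, SE 0.08, adjusted p = 0.00238). The lower genes included both subunits of ribonucleotide reductase. Rrm1 went from 320.9 to 395.6 CPM down to 281.8 to 307.5 CPM (log2 fold change -0.27, adjusted p = 0.00907), and Rrm2 from 293.5 to 308.7 CPM down to 226.8 to 259.9 CPM (-0.28, adjusted p = 0.0268). Ccne1 fell from a mean of 48.7 ± 5.5 CPM to 31.1 ± 6.1 CPM (SD, n = 4; log2 fold change -0.65, 95% interval -0.99 to -0.30, adjusted p = 0.0134), which was the largest change of any member in a comparison of 2 groups. Cdk1, the kinase of mitotic entry, fell from 437.6 to 488.5 CPM at 4 hrs to 373.7 to 417.2 CPM at 12 hrs (-0.24, adjusted p = 0.0212). None of these 4 or of Ccnb2 overlapped between the times, and with Mcm6, Top2a and Ube2c 8 of 44 members did not, where 11.0% of all genes did not. Ccnb2 passed whichever well was left out. Rrm1 lost its call in 1 of 8 such fits (without 4 hrs replicate 4, adjusted p = 0.0757), Ccne1 in 2 (without replicate 1 of either time, up to 0.0988), and Cdk1 and Rrm2 in 4 each (up to 0.0844 and 0.103), Rrm2 also with DESeq2 (0.0561). Replicates 2 and 3 of 4 hrs and 1 and 2 of 12 hrs decided Cdk1, and replicates 1 and 4 of either time decided Rrm2. Over the class, 13 of 20 S-phase members were lower at 12 hrs (median -0.17), as were 16 of 24 mitotic members (median -0.06), and the median over all genes was 0.00. Top2a had a log2 fold change of -0.20 (adjusted p = 0.0767), and passed in a fit of only the wells compared (adjusted p = 0.0355) and without the Activin-A well that stood apart (0.0476).

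Other common readouts of proliferation were read in all groups. Mki67, which encodes the Ki-67 antigen found in all cycling cells, had group means between 142.2 ± 25.3 and 168.0 ± 27.3 CPM (SD, n = 4), and the wells of all groups overlapped. Pcna, the sliding clamp of DNA polymerase, had means of 193.6 to 198.5 CPM at 4 hrs and of 171.8 to 179.1 CPM at 12 hrs. Mcm2 had group means of 177.3 to 213.9 CPM and Ccnb1, cyclin B1, of 165.4 to 212.9 CPM. Cdk1 was highest in untreated wells of 4 hrs (465.2 ± 23.8 CPM) and lowest with Activin-A at 12 hrs (366.1 ± 33.4 CPM). Of these, only Cdk1 passed the test in a comparison, that of the times in untreated wells. The median member varied by an SD of 0.15 on the log2 scale within groups in both classes, while its 8 group means spanned 0.36 (S-phase) and 0.33 (mitotic). Within groups, S-phase members did not deviate from well to well in step: the median correlation between pairs of them over 32 wells was 0.03, and -0.01 for pairs of mitotic members, given as a description only.

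**Figure D4:**
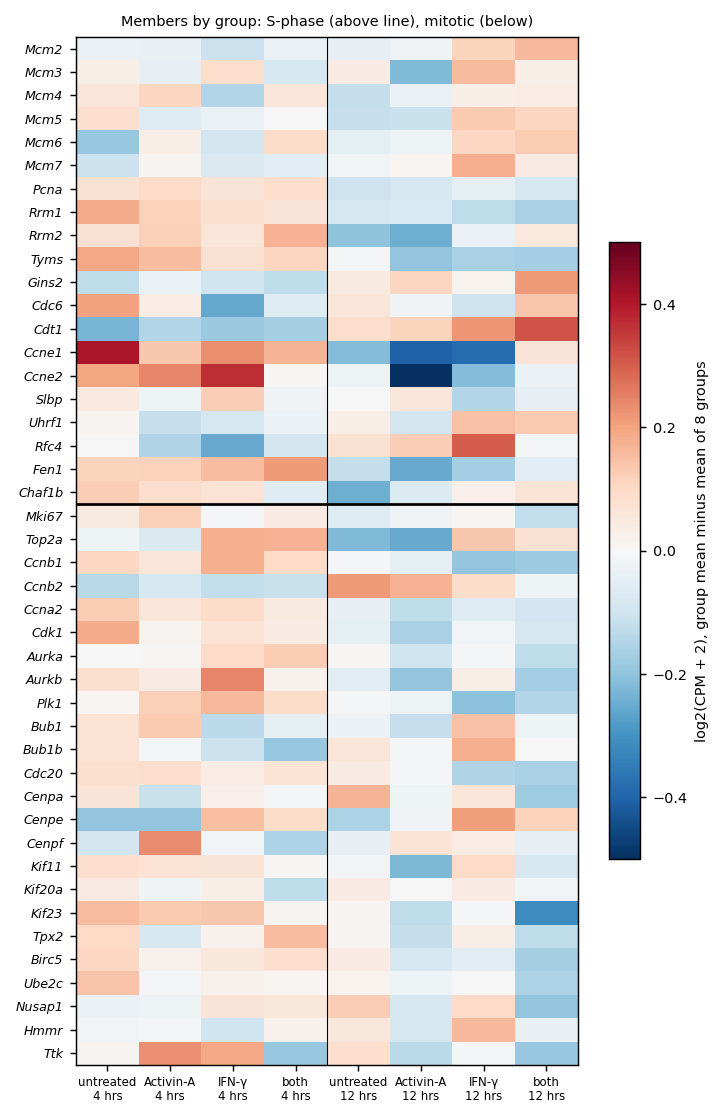
Group means of log2(CPM + 2) for each of the 44 members (rows) in the 8 groups (columns), as the difference from the mean of the 8 groups (color, from -0.5 to 0.5). The cyclin E genes Ccne1 and Ccne2 show the widest range, and most mitotic genes are pale or blue in the columns with Activin-A and both factors at 12 hrs.

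Lists of genes around the members were read in the same way. Of 31 G1 regulators tested (of 36 listed; Cdkn1c, Cdkn2a, Cdkn2b, Mycn and Lin54 were not), IFN-γ raised 1 at 4 hrs (3.23%, against 5.06% of all genes) and 4 at 12 hrs (12.9%, against 9.25%) and lowered none. Cdk6, a kinase of G1, was 75.9 to 106.8 CPM untreated and 166.1 to 202.0 CPM with IFN-γ at 4 hrs (log2 fold change 0.98, SE 0.11, adjusted p = 5.46e-11), and from 76.0 to 99.7 CPM to 150.5 to 166.2 CPM at 12 hrs (0.83, SE 0.10, adjusted p = 6.78e-11). It also rose with both factors (0.94 at 4 hrs and 0.81 at 12 hrs). Rbl1, the pocket protein p107 that restrains E2F targets, was 34.0, 38.5, 45.1 and 29.2 CPM untreated and 72.8, 65.9, 75.6 and 70.7 CPM with IFN-γ at 12 hrs, a 1.93-fold rise (log2 0.95, SE 0.15, adjusted p = 1.78e-07). With both factors at 12 hrs Rbl1 was higher too (log2 fold change 0.79, adjusted p = 4.14e-05 by edgeR), and that call held with any single well left out. Ccnd1, cyclin D1, was 1694 to 1770 CPM untreated and 2018 to 2092 CPM with IFN-γ at 12 hrs (log2 fold change 0.26, adjusted p = 8.55e-06). The calls of Cdk6, Rbl1 and Ccnd1 with IFN-γ held with any single well left out. These genes thus rose in a comparison in which Top2a was the only member called.

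Cdkn1a, the CDK inhibitor p21, moved with time and treatment. Its untreated wells went from 147.7, 148.2, 148.2 and 175.8 CPM at 4 hrs to 102.8, 122.8, 115.6 and 90.0 CPM at 12 hrs (log2 fold change -0.52, adjusted p = 6.26e-04). At 4 hrs it was lower with Activin-A (-0.43, adjusted p = 0.0149) and with both factors (-0.41, adjusted p = 0.00593), and at 12 hrs higher with IFN-γ (0.32, adjusted p = 0.0353). Without the Activin-A well that stood apart the first of these was -0.38 (adjusted p = 0.0621). It was also lost without untreated or Activin-A replicate 4, the call with both factors without untreated replicate 4 or both-factor replicate 1, and the call with IFN-γ in 5 of 8 fits that left out 1 well. The fall with time held in all of them. The IFN-γ effect differed between the times by 0.59 (adjusted p = 0.042), a call lost in 12 of 16 such fits. With both factors, E2f2, an activating E2F, had a log2 fold change of 1.19 at 12 hrs (adjusted p = 0.0422), but on 1 to 8 counts in untreated wells and 9 to 11 with both factors, and the call was lost in 6 of 8 fits with 1 well left out. The totals for G1 regulators with both factors were 1 higher and 1 lower at 4 hrs (6.45%, against 7.29% of all genes) and 3 higher at 12 hrs (9.68%, against 9.84%), shares near the background. Activin-A alone lowered 1 at 4 hrs (Cdkn1a; 3.23%, against 1.64% of all genes; 0 without the well that stood apart) and called none at 12 hrs (against 2.41%).

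**Figure D5:**
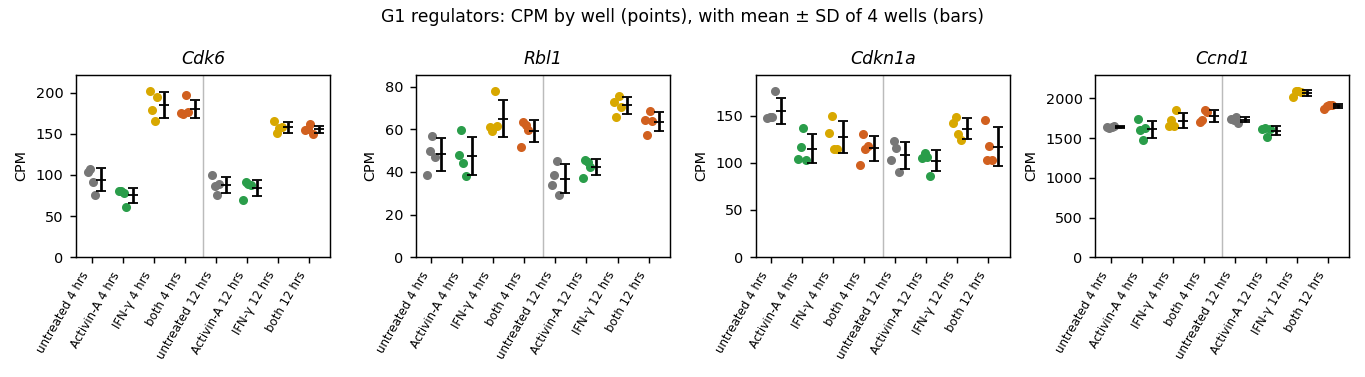
CPM (y axis, from 0) of the G1 regulators Cdk6, Rbl1, Cdkn1a and Ccnd1 in each of the 32 wells (points) by treatment and time, with mean ± SD of 4 wells (black bars). Cdk6 lies at 150.3 to 202.0 CPM in all wells with IFN-γ and at 61.7 to 106.8 CPM in all wells without it.

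Among 48 other replication genes (Orc1 was not tested), IFN-γ at 12 hrs raised 2 of 46 tested (4.35%, against 9.25% of all genes), Cdc45 (log2 fold change 0.45, adjusted p = 0.00438), part of the active helicase, and Rfc3 (0.38, adjusted p = 0.0254), of the clamp loader, and 35 of 46 had a fold change above 0, with a median of 0.12. With both factors at 12 hrs Rfc3 was higher (0.46) and Tk1, thymidine kinase, lower (-0.25), 4.35% of the list against 9.84% of all genes, while the median was 0.14. No other comparison called a gene of this list. Of 65 other mitotic genes, IFN-γ at 12 hrs called 4 (6.15%, against 9.25% of all genes): it raised Ncapd2 (0.34), Cenpm (0.53) and Cdca5 (0.48), which act in condensin, the kinetochore and cohesion, and lowered Ccnf (-0.44). Both factors against IFN-γ at 12 hrs lowered Cdc25b (-0.49, adjusted p = 0.0131), the phosphatase that starts mitosis by activating CDK1, and Cdca3 (-0.32, adjusted p = 0.0257), 2 of 65 (3.08%, against 1.03% of all genes). Cdc25b was 107.9, 98.3, 113.4 and 120.5 CPM with IFN-γ and 77.9, 74.4, 86.3 and 76.9 CPM with both, without overlap. Of this list, 45 of 65 were below 0 with Activin-A at 12 hrs (median -0.07) and 49 of 65 with both factors against IFN-γ (median -0.11). Most of the list was also below 0 in other comparisons: at 4 hrs 41 of 65 were below 0 with Activin-A (median -0.06; 41 also without the well that stood apart) and 42 of 65 with both factors against IFN-γ (median -0.05), and with time in untreated wells 44 of 65 (median -0.08). Both factors against untreated at 12 hrs lowered Ccnf (-0.47) and Kif2c (-0.42), 3.08% of the list against 9.84% of all genes. Kif2c was at 32.75 CPM in both-factor replicate 1, and without that well its log2 fold change was -0.21 (adjusted p = 0.476). Activin-A at 4 hrs lowered Ube2s, 1.54% of the list against 1.64% of all genes (log2 fold change -0.63, but -0.36 with an adjusted p of 0.241 without the well that stood apart, where Ube2s was at 53.5 CPM), and Pbk fell with time in untreated wells (-0.39), 1.54% of the list against 4.9% of all genes. With 1 well left out, fits chosen after seeing the data, Pbk held in all fits, Cenpm was lost without IFN-γ replicate 3, Ncapd2 without IFN-γ replicate 2, Cdc45 without replicate 1 of either group, Rfc3 with both factors without both-factor replicate 1, and Cdc25b without IFN-γ replicate 4 or both-factor replicate 2. The other calls of these lists, Cdca3, Cdca5, Ccnf, Kif2c, Tk1, Ube2s and Rfc3 with IFN-γ, were each lost in 4 to 6 of 8 such fits.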

How the data were processed

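YUMM3.3 cells in 32 wells were profiled by BRB-seq. The deposited table holds whole-number read counts per gene, which the authors made before deposit; their processing notes name STAR 2.7.10b, featureCounts, DESeq2 1.36.0 and the build GRCm39, while the annotation release and the handling of molecular identifiers and of reads shared by near-identical copies are not given in the sources used here. Symbols and gene positions came from GENCODE annotation of GRCm38, and 12437 of 12451 identifiers had a symbol. CPM use TMM library sizes over all wells, and scores use log2 CPM with a prior count of 2. DEGs came from edgeR 4.0.16 (R 4.3.3; glmQLFit, glmQLFTest, TMM, filterByExpr, Benjamini-Hochberg over all genes tested), two-sided, on the 16 wells of a time, or on all 32 wells for comparisons between times. Intervals are 95%. The edgeR and DESeq2 fitting steps were tested on simulated data. Alternatives were DESeq2 1.42.0, RLE scaling, other filters, other sets of wells, a stricter threshold, a replicate block and leaving out each well. The members and lists were chosen with earlier results of these data known. Values are given for members called and, per comparison, for the 3 S-phase and 3 mitotic members with the lowest p, for Mki67, Pcna, Mcm2, Ccnb1, Cdk1 and Top2a in all groups, and for at most 5 called genes of each other list, with Cdkn1a and Ccnd1. Further values of Ccne2, Kif23 and Cdc25b by well were chosen after they were seen. Counting error at these depths and the 4 wells per group limit the precision, as the intervals show. Other parts of the series were not used here.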

Additional observations from a re-analysis of the deposited data

Results flagged for a closer look

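In 8 of 120 groups of 4 wells (15 genes in 8 groups) 1 well lay far from the other 3, where chance gives about 1 in 20. With IFN-γ at 12 hrs, replicate 2 held Mcm6 at 399.3 CPM (others 383.5 to 385.7) and replicate 4 held Rrm2 at 293.5 CPM (others 270.8 to 274.4). Untreated wells of 4 hrs held Ccnb2 at 213.0 CPM in replicate 3 (others 174.1 to 179.9) and Mcm2 at 214.8 CPM in replicate 4 (others 175.8 to 178.9). Rrm1 was 332.0 CPM in replicate 3 of Activin-A at 12 hrs (others 288.4 to 291.2). Pcna was low in 3 wells: 170.5 CPM in replicate 4 of IFN-γ at 4 hrs (others 198.8 to 204.3), 152.8 CPM in replicate 1 of both factors at 4 hrs (others 208.4 to 219.2) and 137.5 CPM in replicate 2 of both factors at 12 hrs (others 182.9 to 192.0). No cause was tested.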

How the results depend on the processing

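No called member reversed its direction, in the comparison that called it, in any alternative tried. This does not cover members near 0, such as Plk1 with Activin-A at 12 hrs (log2 fold change -0.02). With Activin-A at 4 hrs 17 of 24 mitotic members were below 0, and 13 without the well that stood apart, so some turned. The S-phase score differences of IFN-γ at 12 hrs and of both factors against IFN-γ at 4 hrs changed sign in some alternatives. With an adjusted p under 0.01, both factors against untreated at 12 hrs called 2 members, untreated 12 against 4 hrs called 2 and both factors against IFN-γ at 12 hrs called 0. With DESeq2 both factors against untreated at 12 hrs called 2 and both against IFN-γ at 12 hrs 0. A fit of all 32 wells called 0 for both against IFN-γ at 12 hrs. A fit of only the wells compared called 1 (Top2a) for IFN-γ at 4 hrs, 2 for both factors against untreated at 4 hrs (Top2a was added), 6 for untreated 12 against 4 hrs (Top2a was added, adjusted p = 0.0355) and 0 for both against IFN-γ at 12 hrs. With 1 well left out, the calls ranged from 1 to 3 for IFN-γ at 12 hrs (3 without untreated replicate 2, 2 without untreated replicate 4 or IFN-γ replicate 2), from 0 to 1 for Activin-A at 12 hrs, from 0 to 1 for both against IFN-γ at 12 hrs, from 3 to 5 for both against untreated at 12 hrs (3 without untreated replicate 4 or both-factor replicate 1) and from 3 to 5 for untreated 12 against 4 hrs (3 without 4 hrs replicate 1 or 4 or 12 hrs replicate 1). Scores taken as the median over members gave S-phase differences of -0.0022 for IFN-γ, -0.145 for Activin-A, 0.00307 for both against IFN-γ and 8.73e-04 for both against untreated, all at 12 hrs, and mitotic differences of -0.0167 for Activin-A at 12 hrs and -0.0855 for untreated 12 against 4 hrs; the cause was not tested. Wells with the same replicate number did not deviate together (mean correlation -2.29e-04, against 7.63e-05 for other wells), so the numbers were not read as pairs; the replicate block gave 5 calls for both against untreated at 12 hrs and 1 for IFN-γ at 12 hrs, and left every count of calls within 1.5 times. The interaction has no separate fit of only the wells compared, since it already uses all groups of 12 hrs. Leaving out wells for the other lists, and Activin-A 4 hrs replicate 1 for every 4 hrs and time comparison, was chosen after seeing the data.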
